A study of Mus musculus with 6 samples.

Results

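Melanocytes of the mouse mitral valve were chosen by the UMIs of their pigment genes in 6 single-cell libraries, and 67 were found among 53526 barcodes that passed the filters on genes and mitochondrial RNA. A barcode was taken as a melanocyte where it had at least 300 genes, at most 10% mitochondrial UMIs (unique molecular identifiers, 1 per captured RNA molecule), and at least 4 UMIs of Dct, Pmel, Mlana, Tyrp1 and Tyr together with 2 or more of these 5 genes detected. It also had to lack any UMI of the leukocyte gene Ptprc and to carry under 1% of its UMIs from the fibroblast genes Dcn, Col1a1 and Col1a2. The 67 cells were 0.125% of the barcodes (exact binomial 95% interval 0.0970 to 0.159%).

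The study sorted live single cells by flow cytometry from mitral valves that had been digested with collagenase and DNase, and made 10x Genomics 3′ droplet libraries of them. K/B.g7 mice carry a T cell receptor transgene (KRN) together with the g7 class II allele. Autoantibodies give these mice arthritis and valve disease, and their valves are labelled inflamed. B.g7 mice lack the transgene and served as controls. There was 1 library per genotype at 3, 8 and 25 weeks of age, so the 3 ages stand as the replicates of a genotype, and the number of mice behind a library is not stated in the labels. Fibroblasts of every library held UMIs of both Xist and the Y-linked gene Ddx3y, but not in equal measure. In B.g7 at 8 weeks their Ddx3y was at 4.98 CPM (a unit explained below) and their Xist at 1291 CPM. In fibroblasts of the other libraries Ddx3y was at 46.9 to 102 CPM and Xist at 370 to 772 CPM. Xist was seen in 6 of 27 melanocytes of K/B.g7 and in 24 of 40 of B.g7, and the part of sex in the differences below was not tested.

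Melanocytes arise from the neural crest and make melanin in melanosomes, membrane-bound organelles related to lysosomes. The transcription factor MITF, with SOX10 and PAX3, drives the pigment enzymes, and the receptors KIT and EDNRB guide the precursors out of the neural crest and keep the cells alive. Outside the skin such cells settle in the inner ear, the meninges and the heart, where in mice they are known from the valves and the septum, and what they do there is less well understood than their role in skin and hair. Dct (dopachrome tautomerase), Tyrp1 and Tyr (tyrosinase) are the enzymes of melanin synthesis, Pmel forms the fibrils on which melanin is laid down, and Mlana is a melanosome protein.

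MITF binds E-box sequences, and the longer form TCATGTG is known from promoters of pigment genes. The promoters of the rule's genes are shown for this reason, as the 250 bases before the RefSeq start of each gene (GRCm38.p6), 5′ to 3′ on the gene's strand, with CATGTG or its reverse complement CACATG in capitals. RefSeq's table gave a promoter for 3 of the 5 genes, Dct (chr14:118052247-118052496, minus strand), Tyrp1 (chr4:80833963-80834212, plus strand) and Tyr (chr7:87493513-87493762, minus strand).
Dct: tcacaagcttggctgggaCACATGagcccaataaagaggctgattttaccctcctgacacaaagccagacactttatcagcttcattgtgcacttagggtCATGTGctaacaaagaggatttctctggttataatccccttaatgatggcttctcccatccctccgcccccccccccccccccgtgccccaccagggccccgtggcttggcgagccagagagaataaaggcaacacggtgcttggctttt
Tyrp1: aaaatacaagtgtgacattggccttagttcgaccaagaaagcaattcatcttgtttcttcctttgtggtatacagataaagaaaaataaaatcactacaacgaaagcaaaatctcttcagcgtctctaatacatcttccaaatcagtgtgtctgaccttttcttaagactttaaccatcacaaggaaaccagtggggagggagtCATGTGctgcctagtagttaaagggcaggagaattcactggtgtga
Tyr: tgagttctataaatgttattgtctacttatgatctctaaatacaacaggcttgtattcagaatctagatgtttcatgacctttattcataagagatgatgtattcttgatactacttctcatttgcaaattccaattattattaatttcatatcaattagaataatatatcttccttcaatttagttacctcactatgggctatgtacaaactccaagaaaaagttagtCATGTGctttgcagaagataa
The 3 promoters each held CATGTG, at 232 and 150 bases before the start of Dct (the first as CACATG), 46 before Tyrp1 and 21 before Tyr. Searched on both strands over the same windows, TCATGTG, which contains CATGTG, was present for 3.72% of 27025 genes, and CATGTG for 13.8%. Among 26 matched of 30 melanosome genes, TCATGTG was present for 5 (19.2%), and among 19 matched of the 25 leading genes described further on for 2 (10.5%), Kcnj13 and Trpm1. A match of letters is a description of the window and does not show binding.

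Melanocytes were few in every library and formed a smaller share in K/B.g7 than in B.g7 at each age. In K/B.g7 there were 3 of 5727 kept barcodes at 3 weeks (0.0524%, exact 95% interval 0.0108 to 0.153%), 7 of 9318 at 8 weeks (0.0751%, 0.0302 to 0.155%) and 17 of 20151 at 25 weeks (0.0844%, 0.0492 to 0.135%). In B.g7 there were 14 of 3774 at 3 weeks (0.371%, 0.203 to 0.622%), 8 of 5771 at 8 weeks (0.139%, 0.0599 to 0.273%) and 18 of 8785 at 25 weeks (0.205%, 0.121 to 0.324%). The 3 K/B.g7 shares all lay below the 3 B.g7 shares. The means were 0.0706% ± 0.0165 (SD, n = 3) and 0.238% ± 0.120 (SD, n = 3). The two-sided exact permutation test gave p = 0.1, which is the smallest p that 3 against 3 libraries allow, so the design could not reach 0.05. Without predicted doublets the share was lower at 2 of the 3 ages (exact permutation p = 0.4), because 6 of the 8 melanocytes of B.g7 at 8 weeks carried a doublet mark and none of the other 59 did. A share falls when other cells are gained as well as when melanocytes are lost, and these cannot be told apart from sorted cells. With melanocytes and fibroblasts as the denominator the means were 0.101% ± 0.0258 and 0.339% ± 0.123 (SD, n = 3 each; exact permutation p = 0.1).

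**Figure D1:**
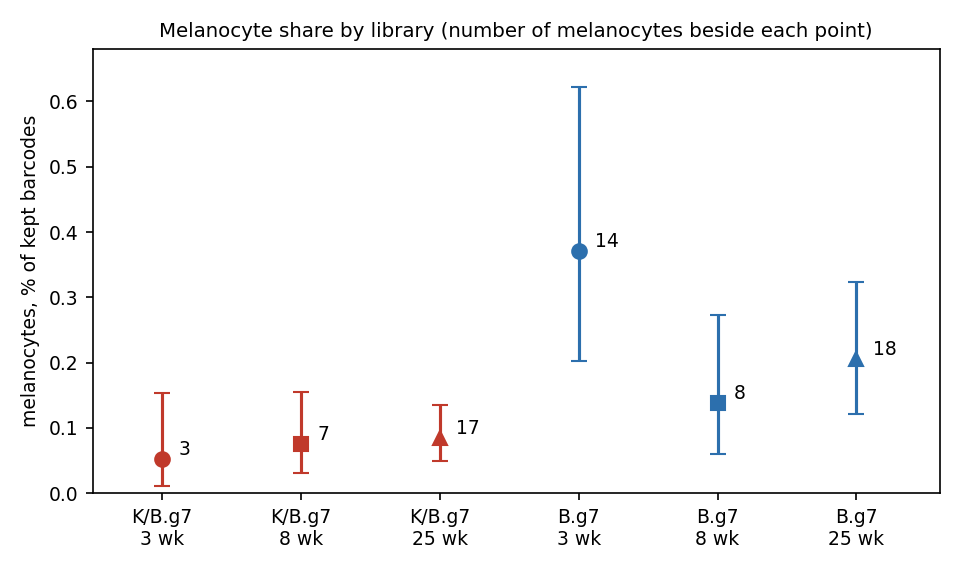
Share of melanocytes among kept barcodes (y axis, percent) in the 6 libraries (x axis), with exact binomial 95% intervals as bars, which cover counting error only, and the number of melanocytes beside each point. The K/B.g7 points lie between 0.0524 and 0.0844% and the B.g7 points between 0.139 and 0.371%.

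The cells held 218789 UMIs in all, from 8995 (3 cells, K/B.g7 at 3 weeks) to 78908 (18 cells, B.g7 at 25 weeks) per library. The whole libraries held 15196750 to 69152541 UMIs. The median melanocyte had 2533 UMIs and 1333 genes, against a median of 3824 UMIs in the 36959 barcodes classed as fibroblasts. Of 346 barcode sequences that occurred in more than 1 library, 0 belonged to a melanocyte. A gene with 0 UMIs over all melanocytes could still have been present at up to 13.7 CPM (3 counts of the total; CPM is counts per 1000000 UMIs), and a count of 0 in the 3 melanocytes of K/B.g7 at 3 weeks allows up to 334 CPM.

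The 5 genes of the rule gave 2.90% of the melanocytes' UMIs, and most members lay far above the minimum. Since these values chose the cells, they are a description. A melanocyte held 9 to 380 UMIs of the 5 genes, with a median of 75. All 5 genes were detected in 33 cells, 4 in 21, 3 in 9 and 2 in 4. Only 1 member had under 10 such UMIs (9), and just outside the rule lay 1 barcode with 3 UMIs of 2 or more genes and 4 barcodes with 8 to 34 UMIs of Dct and none of the other 4 genes. A further 9 barcodes met the pigment part of the rule but had 1.09 to 2.53% of their UMIs from the 3 fibroblast genes, and 1 had a Ptprc UMI.

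**Figure D2:**
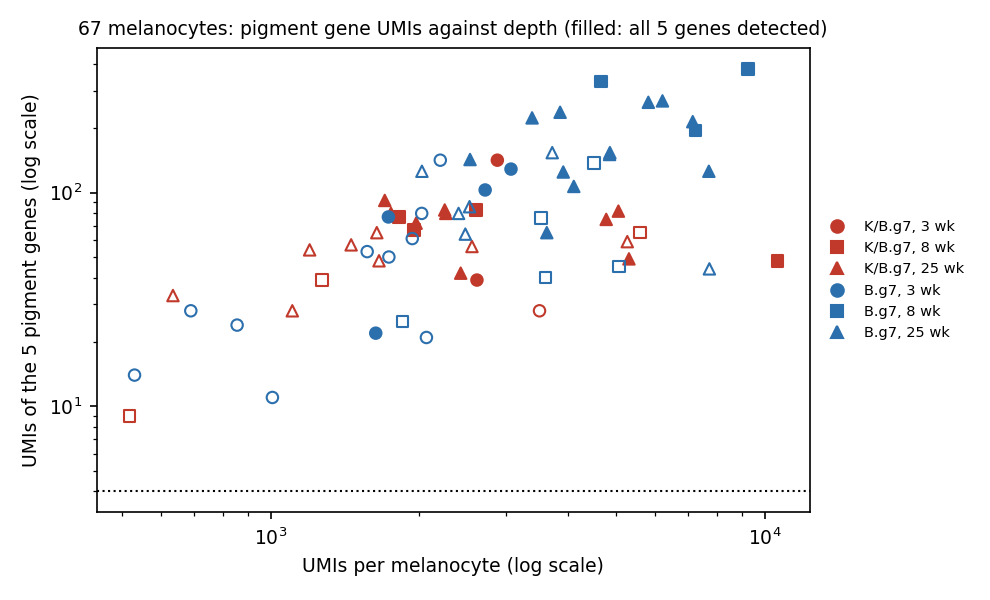
UMIs of the 5 pigment genes (y axis, log scale) against all UMIs (x axis, log scale) in each of the 67 melanocytes, by genotype (colour) and age (shape), with the rule's minimum of 4 as a dotted line. Filled points are the 33 cells with all 5 genes detected, and only 1 cell lies under 10 pigment UMIs.

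Dct was the most abundant of the 5 and took rank 2 of all genes by mean CPM over the 6 libraries. Its level in K/B.g7 was 6782, 10057 and 17869 CPM at 3, 8 and 25 weeks, and in B.g7 20075, 22024 and 20226 CPM. The B.g7 values were close together, and the K/B.g7 values were all lower. Pmel was at 6226, 3407 and 2579 CPM in K/B.g7 and at 7786, 3650 and 6755 CPM in B.g7, with overlapping groups. Mlana was at 5892, 1642 and 1998 CPM in K/B.g7 and at 4503, 2240 and 4195 CPM in B.g7. Tyrp1 was at 4113, 452 and 1208 CPM in K/B.g7 and at 1305, 2265 and 1635 CPM in B.g7. Tyr, the rate-limiting enzyme, was the lowest at 222, 369 and 860 CPM in K/B.g7 and 631, 831 and 596 CPM in B.g7. Dct gave 29.2% of the pigment UMIs in the 3 cells of K/B.g7 at 3 weeks and 58.5 to 72.9% in the other 5 libraries. In fibroblasts the 5 genes together were at 1.59 CPM, and Dct was seen in 0.187% of them. Barcodes with 4 or more UMIs of the 5 genes were left out of the fibroblasts, so these low values are partly set by that choice.

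Outside the rule the cells carried the wider melanocyte programme. Of 30 melanosome genes 27 had a UMI in the 67 cells, beside 11066 of all 31053 genes. The list holds widely expressed genes, and it summed to 10206 CPM in melanocytes and 1503 CPM in fibroblasts. The transporter Slc45a2 was at 778, 246 and 349 CPM in K/B.g7 and at 631, 579 and 583 CPM in B.g7, against 0.0251 CPM in fibroblasts. The ion channel Trpm1 was at 1112, 246 and 232 CPM in K/B.g7 and at 758, 503 and 634 CPM in B.g7, and Gpnmb, a melanosome glycoprotein that MITF is known to switch on, was seen in 66 of 67 cells at 1410 to 3335 CPM over the libraries. Slc24a5, a melanosome exchanger, was at 246 to 1389 CPM, and Mlph and Myo5a, which carry melanosomes along actin, were at 287 to 968 CPM and 151 to 778 CPM. Melanosome genes at 0 were Slc7a11, the cystine transporter that favours the yellow pigment pheomelanin, and the trafficking genes Hps1 and Hps6. In immune cells Slc7a11 was at 55.7 CPM.

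The transcription factors of the lineage were present at lower levels. Mitf was at 222, 657 and 534 CPM in K/B.g7 and at 842, 780 and 634 CPM in B.g7, and was seen in 49 cells (73.1%) against 4.91% of fibroblasts. Pax3 was at 778, 164 and 349 CPM in K/B.g7 and at 800, 428 and 545 CPM in B.g7. Sox10 was at 0, 164 and 232 CPM in K/B.g7 and at 295, 277 and 253 CPM in B.g7, and the 0 comes from 3 cells. Sox10 is shared with glia, and the 499 barcodes classed as glial had 88.9 CPM. Tfap2a had 19 UMIs in 15 cells, Lef1 2 UMIs, and Tfec none.

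Among the receptors Ednrb, for endothelins, was the highest. It was at 2112, 1314 and 1766 CPM in K/B.g7 and at 3030, 1082 and 2306 CPM in B.g7, and 65 of 67 cells had a UMI. Met, the receptor of hepatocyte growth factor, was at 889, 452 and 256 CPM in K/B.g7 and at 884, 327 and 583 CPM in B.g7. Kit was at 222, 123 and 163 CPM in K/B.g7 and at 505, 176 and 304 CPM in B.g7, and was seen in 30 cells. Mc1r, the melanocortin receptor that sets the type of pigment in skin, had 4 UMIs in 4 cells. Several of the 14 ligands and modulators listed were found in other cells of the valve. Kitl had 2 UMIs in melanocytes and was at 110 CPM in endothelial cells, Edn1 had 1 UMI and was at 122 CPM in endothelial cells, and Edn3 had none and was at 57.2 CPM in glial cells. Hgf and Asip, the antagonist of MC1R, had 0 UMIs in melanocytes and stood at 12.4 CPM in endothelial cells and 1.98 CPM in fibroblasts, levels under the 13.7 CPM that a count of 0 allows in melanocytes, so no difference was detectable at this depth.

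The 25 genes outside the rule with the largest ratio of mean CPM in melanocytes over all other kept barcodes (pseudocount 5 CPM), among 350 genes with a mean of at least 50 CPM and a higher level than the other barcodes in 6 of 6 libraries, were led by Ptgds, the lipocalin-type prostaglandin D synthase. Ptgds was at 4002, 6116 and 2695 CPM in K/B.g7 and at 2188, 5739 and 5209 CPM in B.g7, against a mean of 3.83 CPM in the other barcodes, a ratio of 490.5. It had 992 UMIs in 56 of the 67 cells, took rank 13 by mean level, and was seen in 0.657% of fibroblasts. After it came Gpnmb, Trpm1, Slc45a2, Syt4, Pax3, Mlph, Met, Ednrb and Gsta4, and then Gsta1, Syngr1, Mcoln3, Mitf, Kcnj13, Gsta2, Hpse, Kit, Mgll, Nrcam, Insc, Cited1, S100b, Rab38 and Enho. Of the 25, 12 belong to the lists of melanosome, transcription factor and receptor genes described above. Another 3 are glutathione S-transferases of the alpha class, enzymes that conjugate reactive compounds: Gsta4 was at 1001 to 3232 CPM, Gsta1 at 123 to 667 CPM and Gsta2 at 123 to 334 CPM. Gsta1 and Gsta2 are close copies of each other, so reads may have been split between them. Kcnj13, a potassium channel, was at 82.1 to 445 CPM, and Mgll, which breaks down the endocannabinoid 2-arachidonoylglycerol, at 976 to 3114 CPM. The ranking compares cells that the pigment genes picked with the rest, and so carries no test.

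**Figure D3:**
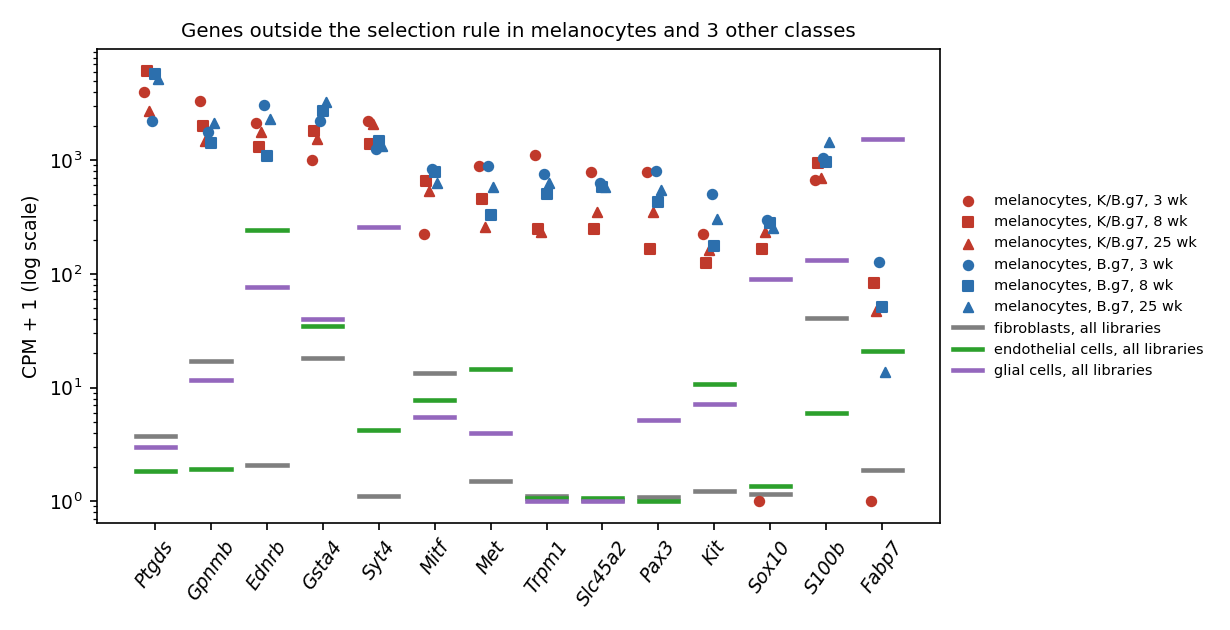
Level (y axis, CPM + 1, log scale) of 14 genes outside the rule (x axis) in the melanocytes of each library (points, by genotype and age) and over all fibroblasts, endothelial cells and glial cells (bars). Ptgds, Trpm1, Slc45a2 and Pax3 stand above the bars in all 6 libraries, and Sox10 is at 0 in K/B.g7 at 3 weeks.

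Markers of other cell types were mostly absent. The immune, macrophage and mast cell lists were at 0 UMIs, and Ptprc was at 0 by the rule. The endothelial list summed to 22.9 CPM, with Cdh5, Egfl7, Cldn5 and Vwf at 0, against 4683 CPM in endothelial cells. Of the glial genes Mbp, Kcna1, Ngfr and Sox2 were at 0, but S100b was at 958 CPM ± 278 in melanocytes and 280.2 CPM ± 180 in glial cells (mean and SD, n = 6 libraries each). The proliferation genes Mki67 and Top2a had 0 UMIs, and the cycling list summed to 155 CPM in melanocytes and 185 CPM in fibroblasts. Of the 15 excitability genes 11 had a UMI, with a sum of 142 CPM, against 472 CPM in fibroblasts.

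Fibroblast RNA was present, and it differed between libraries. The 8 fibroblast markers (Dcn, Col1a1, Col1a2, Col3a1, Lum, Pdgfra, Mfap4 and Gsn) summed in melanocytes to 222, 12274 and 12106 CPM in K/B.g7 and to 337, 1108 and 5868 CPM in B.g7, so they were near 0 at 3 weeks in both genotypes. In endothelial cells, which should lack these genes too, the sum was 2918, 5224 and 6001 CPM in K/B.g7 and 2346, 3362 and 3500.2 CPM in B.g7. In glial cells it was 1130.2, 8773 and 9951 CPM against 1298, 5603 and 11349.5 CPM, and in immune cells 2471, 8789 and 15816 CPM against 429.6, 3205 and 10795 CPM. In both genotypes the sum was higher at 25 than at 3 weeks in all 4 classes. The melanocyte sum was the highest of the 4 only in K/B.g7 at 8 weeks. Melanocytes, endothelial and glial cells were limited to under 1% of UMIs from Dcn, Col1a1 and Col1a2 when they were chosen. Immune cells had no such limit, so the 4 classes are not compared on equal terms. In 8 melanocytes the 8 markers gave over 1% of the UMIs, 4 of them in K/B.g7 at 25 weeks, 2 in K/B.g7 at 8 weeks and 2 in B.g7 at 25 weeks. These 8 cells had a median of 5454 UMIs, against 2401 in the other 59, a median of 54 pigment UMIs against 77, and no doublet mark. The comparisons below are also given without them, a choice made after the calls were seen. Leaving them out lowered the melanocyte UMIs from 24361 to 8158 in K/B.g7 at 8 weeks and from 43035 to 25243 at 25 weeks. In B.g7 at 25 weeks they fell from 78908 to 63463. The part of this loss of counts in the changed calls was not tested.

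**Figure D4:**
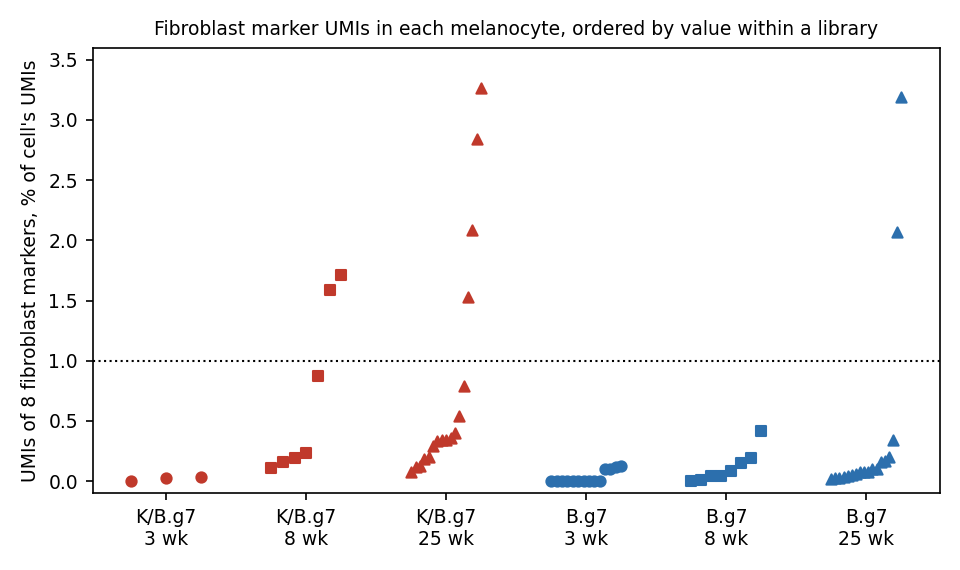
UMIs of 8 fibroblast markers as a percentage of all UMIs of a melanocyte (y axis), 1 point per cell, for the 6 libraries (x axis), ordered by value within a library. The 8 cells above the dotted line at 1% are 4 in K/B.g7 at 25 weeks, 2 in K/B.g7 at 8 weeks and 2 in B.g7 at 25 weeks.

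To ask whether melanocytes of inflamed valves differ in expression, UMIs were summed over the melanocytes of each library and fitted with edgeR's quasi-likelihood test with genotype and age in 1 model, leaving 2 residual degrees of freedom. Of 592 genes with enough counts, 1 (0.169%) passed a Benjamini-Hochberg adjusted p of 0.05. This was Mfap5 (chr6:122505845-122529290), which encodes a protein of elastic microfibrils made by fibroblasts. It had 1, 23 and 45 UMIs in K/B.g7 melanocytes and 0, 0 and 4 in B.g7, in 12 cells in all. In CPM these were 111, 944 and 1046 against 0, 0 and 50.7. The fitted log2 fold change was 4.96 ± 0.61 (SE; adjusted p = 0.00372, edgeR), with higher levels at 8 and 25 weeks. The 3-week values, 1 UMI against 0, show no direction. The gene stood at 1794 CPM in fibroblasts, and without the 8 cells rich in fibroblast markers Mfap5 had too few counts to be tested and 0 of 435 genes passed (edgeR, 15 with an unadjusted p under 0.05; smallest adjusted p = 0.238). The count also turned on the libraries at 3 weeks, which held the fewest melanocyte UMIs. Without the K/B.g7 library of 3 cells 43 of 1080 genes passed (33 higher and 10 lower), without the B.g7 library at 3 weeks 42, and without both 40 of 654. Of the 28 higher genes of the last fit 21 had a higher mean CPM in fibroblasts than in melanocytes, and with the 8 cells left out as well 0 of 522 genes passed (28 with an unadjusted p under 0.05; smallest adjusted p = 0.411). The 3 fits on all cells without a library at 3 weeks rest on the same libraries at 8 and 25 weeks. A single library at 3 weeks is taken up by its own age term, so these fits are not separate evidence. They also leave fewer residual degrees of freedom, and their p-values rest almost wholly on a spread shared across genes. Genes named here for other lists, Id3, Gstp1, Dnajb1 and Ifi27l2a, passed in them. Tyrp1, whose UMIs helped to choose the cells, was counted among the lower genes, and so was Xist, whose level depends on sex. Without both libraries at 8 weeks 0 of 530 passed (18 with an unadjusted p under 0.05), and without both at 25 weeks 2 of 361.

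The 5 genes of the rule were given above by level only, since their UMIs chose the cells. Among them Dct was lower in K/B.g7 at each age, and Tyrp1 was lower at 8 and 25 weeks and higher at 3 weeks, in 3 cells. Of 9 melanosome genes tested 3 were higher and 6 lower, with 0 called and a median log2 fold change of -0.46, beside -0.03 over all genes tested. Mitf had a log2 fold change of -0.42 ± 0.36 (adjusted p = 0.860), and Ptgds one of 0.00 ± 0.35 (adjusted p = 0.999).

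**Figure D5:**
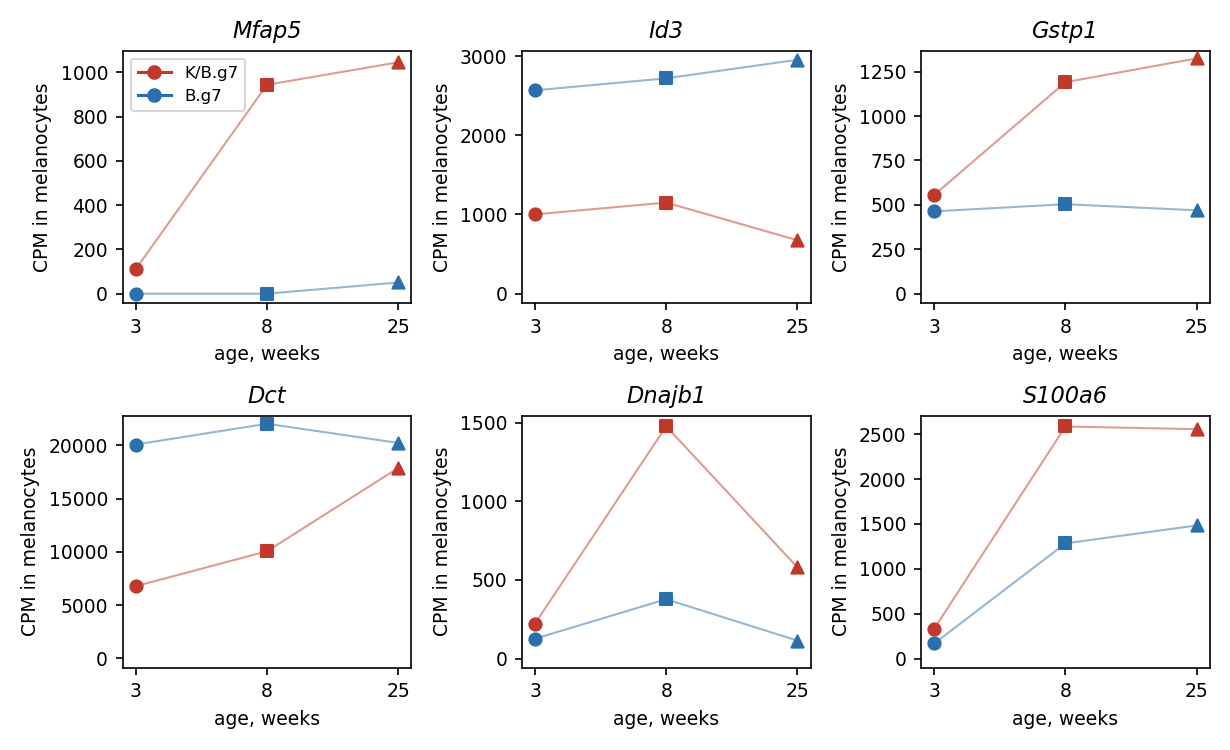
Level in melanocytes (y axis, CPM, from 0) of 6 genes at 3, 8 and 25 weeks (x axis, ages evenly spaced), 1 point per library. Gstp1 lies higher and Id3 and Dct lower in K/B.g7 at all 3 ages, Mfap5 is higher at 8 and 25 weeks, and S100a6 is lower at 3 weeks than at 8 and 25 weeks in both genotypes.

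Id3, which encodes an inhibitor of basic helix-loop-helix transcription factors and is induced by BMP signals, showed the smallest p among the listed genes that are lower in K/B.g7. Its level was 1001, 1149 and 674 CPM in K/B.g7 and 2567, 2718 and 2953 CPM in B.g7. The groups did not overlap. Of all 592 genes, 24 (4.05%) were higher and 40 (6.76%) lower in K/B.g7 with no overlap between the genotypes, 10.8% in all, and without the 8 cells rich in fibroblast markers 22 and 30. The log2 fold change of -1.55 ± 0.32 (SE) had an adjusted p of 0.0882 (edgeR) and did not pass. In fibroblasts of the same libraries Id3 was at 1567, 794 and 750 CPM in K/B.g7 and at 928, 1879 and 1238 CPM in B.g7, which overlap. The difference between the fibroblast and the melanocyte fold change had an adjusted p of 0.127 (edgeR), in a test that 10 of 12365 genes (0.0809%) passed. Without the K/B.g7 library at 3 weeks Id3 passed, with a log2 fold change of -1.67 (adjusted p = 0.000446), and without the 8 cells rich in fibroblast markers it was -1.33 (adjusted p = 0.537).

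Of 11 oxidative stress genes tested 2 were higher and 9 lower in K/B.g7, with 0 called. Gstp1, a glutathione S-transferase of the pi class, was higher at 556, 1190 and 1324 CPM in K/B.g7 against 463, 503 and 469 CPM in B.g7, a log2 fold change of 1.26 ± 0.33 (SE; adjusted p = 0.169, edgeR). Without the K/B.g7 library at 3 weeks Gstp1 passed (adjusted p = 0.00100), and without that age and the 8 cells it did not (log2 fold change 2.04, adjusted p = 0.411). The same order was seen in fibroblasts, with 104, 211 and 183 CPM in K/B.g7 and 33.7, 73.7 and 67.2 CPM in B.g7, and in endothelial cells with 53.4, 108 and 104 CPM against 22.4, 45.3 and 44.3 CPM. Its close copy Gstp2 had 3 UMIs in melanocytes, and reads may have been split between the copies. Gsta4 differed the other way, at 1001, 1806 and 1534 CPM against 2231, 2718 and 3232 CPM (log2 fold change -0.85 ± 0.30, adjusted p = 0.330), and the iron storage chain Ftl1 was at 4558, 2340 and 2812 CPM against 4798, 4883 and 5044 CPM.

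The lists tied to inflammation had few members with enough counts. Of 14 class I antigen presentation genes 2 were tested, both higher in K/B.g7: H2-D1 was at 667, 1067 and 558 CPM in K/B.g7 and at 505, 327 and 431 CPM in B.g7 (log2 fold change 0.91 ± 0.37, adjusted p = 0.421, edgeR). Class II genes had 3 of 8 members with a UMI and none tested. The interferon list had 1 gene tested of 16, Ifi27l2a, at 0, 369 and 627 CPM in K/B.g7 and 0, 25.2 and 266 CPM in B.g7 (adjusted p = 0.280, and 0.0350 without the K/B.g7 library at 3 weeks). It stood at 198 to 1795 CPM in fibroblasts. Of 15 immediate early and heat shock genes tested 13 were higher and 0 called (median log2 fold change 0.63). The heat shock gene Dnajb1, which helps HSP70 refold proteins, was at 222, 1478 and 581 CPM in K/B.g7 and at 126, 378 and 114 CPM in B.g7, a log2 fold change of 2.06 ± 0.39 (SE; adjusted p = 0.0556, edgeR). Without the K/B.g7 library at 3 weeks Dnajb1 passed (adjusted p = 9.98e-06), and without that age and the 8 cells it did not (log2 fold change 1.04, adjusted p = 0.960).

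At 25 weeks, where each genotype had at least 17 melanocytes, the libraries can be set side by side without a test. Of 502 genes with at least 20 UMIs and 50 CPM in 1 of them, 29 (5.78%) were at least 2-fold higher and 69 (13.7%) at least 2-fold lower in K/B.g7. The median ratio was 0.842, and relative to it 38 were higher and 38 lower. Without the 6 cells of this age rich in fibroblast markers 13 of 400 were higher and 76 lower (27 and 48 relative to a median of 0.808). Intervals are exact 95% intervals for counting error only. The largest ratios, named after their values were seen, were those of the fibroblast genes Mfap5 (20.6, 7.52 to 79.0), Ogn (12.8, 4.49 to 50.4) and Pi16 (10.4, 4.31 to 30.3), followed by Ckb (5.76, 2.38 to 16.0), a creatine kinase, and Dnajb1 (5.09, 2.30 to 12.4). The lowest with at least 20 UMIs in K/B.g7 were Id3, at 29 against 233 UMIs (ratio 0.228, 0.150 to 0.337), and the galectin Lgals3, at 21 against 148 UMIs (ratio 0.260, 0.156 to 0.413). Without those 6 cells the ratio was 0.251 for Id3 (0.152 to 0.394), 0.316 for Lgals3 (0.182 to 0.518) and 5.75 for Dnajb1 (2.24 to 16.5). For Mfap5, Pi16 and Ckb it was 5.03, 7.54 and 1.26, from at most 4 UMIs per library and with intervals that include 1, and Ogn had 2 UMIs against 0.

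S100a6 rose with age in melanocytes. S100a6 (chr3:90612882-90624181), a small calcium-binding protein, was at 334, 2586 and 2556 CPM in K/B.g7 and at 168, 1284 and 1483 CPM in B.g7 at 3, 8 and 25 weeks. It was seen in 47 of 67 cells. It rose from 3 to 8 weeks by a log2 fold change of 3.07 ± 0.48 (SE; adjusted p = 0.0332, edgeR) and from 3 to 25 weeks by 3.11 ± 0.47 (adjusted p = 0.0130), in 2 of 2 genotypes. In fibroblasts it was at 1817, 4476 and 4894 CPM in K/B.g7 and at 3179, 3535 and 4476 CPM in B.g7. Of 592 genes, 2 (0.338%) passed from 3 to 25 weeks and 1 (0.169%) from 3 to 8 weeks. The other gene was the actin-severing gene Gsn, one of the 8 fibroblast markers, with 0 and 3 UMIs at 3 weeks and 262 and 250 at 25 weeks in K/B.g7 and B.g7 (pooled ratio 45.8, exact 95% interval for counting error 15.6 to 223; adjusted p = 0.0130, edgeR). Without the 8 cells rich in fibroblast markers S100a6 had log2 fold changes of 2.07 (adjusted p = 0.621) at 8 weeks and 2.34 (adjusted p = 0.440) at 25 weeks, Gsn one of 2.88 (adjusted p = 0.430), and 0 of 435 genes passed in either comparison (edgeR, 33 and 31 with an unadjusted p under 0.05). Without predicted doublets, which left 2 melanocytes in B.g7 at 8 weeks, 0 of 430 genes passed in either comparison (edgeR). With the doublets kept, DESeq2 called 4 genes from 3 to 25 weeks and 3 from 3 to 8 weeks. With any 1 library left out 6 to 37 genes passed from 3 to 25 weeks and 10 to 29 from 3 to 8 weeks, the most without the B.g7 library at 3 weeks.

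None of the melanosome genes passed the test with age. From 3 to 25 weeks 8 of 9 were lower (median log2 fold change -0.60), with 0 called, beside a median of 0.01 over all genes tested. Slc24a5 had the smallest p of these, at 1334, 246 and 534 CPM in K/B.g7 and 1389, 604 and 722 CPM in B.g7 (adjusted p = 0.378, edgeR). Of 11 oxidative stress genes 9 were higher at 25 weeks with 0 called, among them the metallothionein Mt1 at 2557, 4187 and 3997 CPM in K/B.g7 and 3156, 5512 and 5956 CPM in B.g7 (log2 fold change 0.88 ± 0.36, adjusted p = 0.425).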

How the data were processed

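The authors deposited raw UMI counts of 31053 genes in each barcode, per the file headers. The libraries were made with a single-cell 3′ kit, per the labels' protocols, and Cell Ranger 3.1.0 and mm10 are named in the submitters' processing notes. The annotation version is not given in the sources used here. Of 58351 barcodes, 53526 passed the filters. Barcodes with 4 or more UMIs of the 5 pigment genes were left out of every class compared with melanocytes. Fibroblasts had 1% or more of UMIs from Dcn, Col1a1 and Col1a2, no Ptprc UMI, and did not meet the endothelial or glial marker rule. Endothelial and glial cells had at least 4 UMIs of 2 or more of 5 markers and under 1% of UMIs from these fibroblast genes. Immune cells had a Ptprc UMI and no limit on the fibroblast genes. Doublets were marked in each library as the highest Scrublet scores (0.8% per 1000 barcodes), and were kept.

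The melanocyte rule, the 29 gene lists and the tests were chosen with earlier results of these data known. UMIs of the melanocytes of a library were summed and tested with edgeR 4.0.16 in R 4.3.3 (TMM, filterByExpr, quasi-likelihood F test, Benjamini-Hochberg over all genes tested, threshold 0.05), with DESeq2 1.42.0 as an alternative, and each SE derived from the fold change and its F value. A minimum of 10 melanocytes per library was planned. It left 25 weeks alone and no test, so all 6 libraries were fitted, a choice made after the cell numbers were seen. P-values rest on the spread between libraries, which edgeR moderates by sharing it across genes. In the interaction and in the fits without a library at 3 weeks the spread was almost wholly the shared one. A small p there does not measure how closely a gene's own libraries agree. Age was a block. The labels pair the genotypes by age, and within each pair the 2 libraries deviated together (r = 0.402 at 3 weeks, 0.164 at 8 and 0.327 at 25, over 592 genes). The genotype test was tried on simulated counts with a dispersion of 0.2, where 0.0625 was fitted to the data. It called 3 of 88 genes changed 2-fold and 37 of 83 changed 4-fold, and 0 unchanged genes. A count of 0 called genes therefore does not exclude 2-fold changes.

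Genes were named where past the threshold with the same sign in every pair and at least 20 CPM, up to 10 per direction (5 for the interaction with fibroblasts), with up to 4 members of smallest p per list and 25 leading genes of at least 50 CPM and higher in 6 of 6 libraries. Other genes are named for their role in a list. Gene positions are from GENCODE vM21. Shares were compared by exact permutation tests (scipy 1.17.1). A few genes of the lists are not reported here.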

Additional observations from a re-analysis of the deposited data

Results flagged for a closer look

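The genotype difference in melanocytes was set against that in fibroblasts of the same libraries by an interaction term, and 10 of 12365 genes (0.0809%) passed a Benjamini-Hochberg adjusted p of 0.05 (edgeR). All 10 had the more positive difference in melanocytes. The p-values of this test rest almost wholly on a spread shared across genes, not on each gene's own spread between libraries. The named ones were Mfap5, by 4.81 ± 0.70 on the log2 scale (SE; adjusted p = 1.07e-07), Ebf1, a transcription factor, by 4.04 ± 0.87 (adjusted p = 0.00675), Ogn, a matrix proteoglycan, by 3.50 ± 0.72 (adjusted p = 0.00302), and the heat shock gene Dnajb1, by 2.53 ± 0.47 (adjusted p = 0.00040). Meox1 passed as well (adjusted p = 0.000519), with 0, 8 and 12 UMIs in K/B.g7 melanocytes and 0, 0 and 0 in B.g7. The median interaction over all genes was -0.22. The other 5, named after their values were seen, were Thbs4, Pi16, Comp, Dcn and Fibin. Dcn is among the genes whose UMIs chose both the melanocytes and the fibroblasts, so its call is a description only. Of the 56 UMIs of Thbs4, 55 lay in K/B.g7 at 8 weeks, with 2 melanocytes showing the gene in all. Of the 10, 8 stood above 300 CPM in fibroblasts, and the fibroblast markers summed to more in K/B.g7 than in B.g7 melanocytes at 8 and 25 weeks. Without the 8 melanocytes rich in those markers 0 of 12323 genes passed (edgeR, 165 with an unadjusted p under 0.05; smallest adjusted p = 0.149).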

How the results depend on the processing

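Few cells limit the results: 3 melanocytes stand for K/B.g7 at 3 weeks, and single cells carried much of the fibroblast RNA. The melanocyte share differed by -0.168 percentage points (K/B.g7 minus B.g7) and stayed lower under all 9 alternatives, between -0.220 and -0.0920 with an age left out. The counts of called genes were less stable, and where they moved the cause was not tested. With the pairing by age dropped (no replicate block) the genotype comparison called 0 of 467 genes (28 with an unadjusted p under 0.05) in place of 1. It called 2 with DESeq2, 3 with DESeq2 size factors and 3 with library sizes without pigment and mitochondrial genes, 10 without a filter on low counts, 8 without cells with markers of other types, and 0 to 43 with a library or an age left out. From 3 to 25 weeks 2 genes were called, and 0 without the genotype term, 4 with DESeq2, 31 without a filter, 0 without predicted doublets, 7 without cells with other markers, and 6 to 37 with a library left out. From 3 to 8 weeks 1 was called, and 0 without the genotype term, 3 with DESeq2, 14 without a filter, 0 without predicted doublets, 6 without cells with other markers, 2 with library sizes without pigment and mitochondrial genes, and 10 to 29 with a library left out. The interaction with fibroblasts called 10, and 0 to 27 with an age left out (27 without 3 weeks, 5 without 8 and 0 without 25). Without the 8 cells rich in fibroblast markers, and so with fewer UMIs, these 4 comparisons called 0. The combined fit without 3 weeks and without those cells also called 0. In all, 12 pairs of gene and comparison were followed under the alternatives, for Mfap5, Dnajb1, Id3, Gstp1, Dcn, Ogn, S100a6 and Gsn. None of these reversed its direction. Other genes named from the fits were not followed in this way. Tyrp1, a gene of the rule, changed its sign in the genotype comparison without the 8 cells.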
